A study of Bos taurus and Bos grunniens x Bos taurus and Bos grunniens with 18 samples.

Results

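The ADAM and ADAMTS genes encode zinc metalloproteinases with a disintegrin domain, and 37 of them were followed in the testes of cattle, yaks and their sterile hybrid. They were taken from the mRNA table by symbol, as genes named ADAM or ADAMTS followed by a number, without ADAM2 and ADAM32. They made up 37 of the 19994 genes in the table, 18 of them ADAM and 19 of them ADAMTS. Testes came from 3 cattle (Bos taurus), 3 yaks (Bos grunniens) and 3 cattle-yaks (titled Dzo, Bos grunniens x Bos taurus), all 4 years of age and castrated in 1 cooperative. The labels name no treatment, and they do not say which species was the dam of the hybrids. The labels give 3 animals and 3 libraries for each group, so the spread within a group is read as a spread between animals. RNA was measured in whole testis, so fewer cells of a type and less RNA per cell cannot be told apart.

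ADAM proteins are membrane proteins. Some, such as ADAM10 and ADAM17, cut the outer part off other membrane proteins, while several ADAMs of male germ cells have lost the catalytic site and act in sperm adhesion and migration, mostly known from the mouse. ADAMTS proteins are secreted, carry thrombospondin repeats and cut matrix proteins such as versican, procollagen and the von Willebrand factor.

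Values are FPKM, fragments per kilobase of transcript, scaled to the number of mapped fragments, summed over the transcripts of a gene. FPKM is scaled for length, so levels of different genes can be set side by side. Of the 37 genes, 24 reached 1 FPKM in at least 3 libraries and were tested, 14 ADAM and 10 ADAMTS, among 14091 genes tested in all. Of the 24, 5 had fewer than 3 parental libraries at that level and passed only with the cattle-yak libraries, in which they were high. These were ADAM33, ADAMTS1, ADAMTS3, ADAMTS10 and ADAMTS17. The filter thus bears on their calls, and their p-values are given from a fit with no filter. ADAM21 and ADAMTS2 had no cattle-yak library at that level and passed through the parents. Fold changes are differences in log2(FPKM + 1), a scale that shrinks the change of weakly expressed genes, and a call is an adjusted p under 0.05 in limma with Benjamini-Hochberg adjustment over all genes tested. The labels gave no batch. Summed FPKM lay between 408528 and 481551 per library, and read depth is unknown. The hybrid differed from both parents across the transcriptome, and the median log2 change of all genes tested was 0.50 against cattle and 0.54 against yak. On the first principal component, cattle-yak replicate 3 and yak replicate 1 stood at its extremes.

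Testis ADAMs made up most of the family's summed RNA level in the parents, and widely expressed ADAMs and ADAMTS genes most of it in the hybrid. Summed over the 37 genes, FPKM was 525, 506 and 635 in the cattle libraries and 733, 504 and 664 in the yak libraries. The same sum was 215, 164 and 178 in the cattle-yak libraries. The 6 testis and epididymis ADAMs held 84.2 to 86.8% of the sum in cattle and 85.1 to 92.4% in yak, but 6.05 to 17.7% in cattle-yak. The 9 widely expressed ADAMs held 5.24 to 6.57% in cattle, 2.79 to 6.68% in yak and 48.0 to 59.2% in cattle-yak. The 19 ADAMTS genes held 5.04 to 5.67% in cattle, 3.91 to 6.32% in yak and 20.6 to 22.6% in cattle-yak. In cattle and yak ADAM3A alone gave a mean of 63.9 and 72.6% of the family's FPKM. In cattle-yak it gave 7.66% and ranked 4th, behind ADAM10 at 26.5%, ADAM17 and ADAM11.

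**Figure D1:**
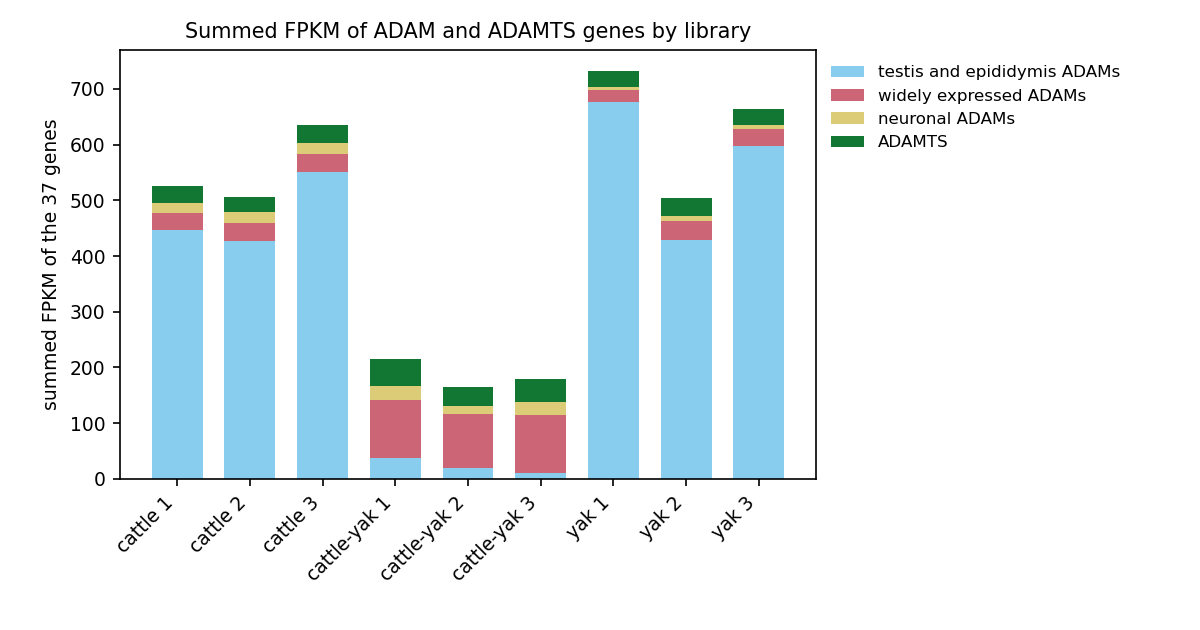
Summed FPKM of the 37 ADAM and ADAMTS genes in each of the 9 libraries, with the bar split by group of genes. The light blue part, the testis and epididymis ADAMs, fills at least 84.2% of each cattle and yak bar and at most 17.7% of each cattle-yak bar.

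In the tests over all genes, 20 of the 24 members were called between cattle-yak and cattle, 12 higher and 8 lower, where 84.4% of all genes tested were called, 54.4% higher and 30.0% lower. Against yak 22 were called, 13 higher and 9 lower, where 86.0% of all genes were called, 55.3% higher and 30.7% lower. The shares of the members called were thus close to those of all genes in both comparisons. Without the 5 that needed the cattle-yak libraries to pass, 19 members remained, 7 higher and 8 lower than in cattle and 8 higher and 9 lower than in yak. The 8 still include ADAM21, and the 9 include ADAM21 and ADAMTS2, which passed through the parents. All genes were not recounted without such genes. The counts below, against both parents alike and of libraries without overlap, include the 5. Against both parents alike, 12 members were higher and 7 lower, 50 and 29.2% of the 24 tested, beside 50.7 and 27% of all genes. Both comparisons share the cattle-yak libraries. Leaving out cattle-yak replicate 3 gave 18 calls against cattle and 19 against yak, and leaving out yak replicate 1 gave 20 and 21. All 3 cattle-yak libraries lay above all cattle libraries for 12 members and below them for 8, as for 55.4 and 30.7% of all genes. Against yak this held for 13 and 9 members, and for 56.5 and 31.8% of all genes. The tested testis ADAMs were lower, and the widely expressed ADAMs were higher but for ADAM19. The ADAMTS genes went both ways, also within some roles.

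All 5 tested ADAMs of the testis group, ADAM3A, ADAM1B, ADAM18, ADAM21 and ADAM20, were lower than in either parent. Lower calls made up 30.0% of all genes tested against cattle and 30.7% against yak. These 5 genes had median log2 changes of −3.65 from cattle and −3.38 from yak, beside 0.50 and 0.54 over all genes. They kept their direction and their call under every alternative that tested them.

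ADAM3A (ENSBTAG00000033312) is a sperm surface protein that in the mouse is needed for migration into the oviduct and for binding the egg coat. It stood at 339, 303 and 428 FPKM in the cattle libraries, at 566, 334 and 492 in yak and at 25.5, 11.5 and 7.43 in cattle-yak. Every cattle-yak library lay below every parental library, and the mean was 24.1-fold lower than in cattle and 31.4-fold lower than in yak. The difference from cattle was −4.65 ± 0.36 on the log2 scale (± SE throughout the log2 changes, limma, adjusted p = 1.23e-06), and that from yak was −5.01 ± 0.36 (adjusted p = 6.44e-07). It was the most abundant member in both parents.

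ADAM1B (ENSBTAG00000031693), which in the mouse pairs with ADAM2 on sperm, was the next most abundant member of the parents. It stood at 64.9, 84.6 and 76.3 FPKM in cattle, at 60.4, 53.6 and 64.9 in yak and at 10.04, 5.16 and 2.25 in cattle-yak. Cattle and yak overlapped, and the cattle-yak libraries lay below both. The log2 change was −3.65 ± 0.34 against cattle (limma, adjusted p = 4.14e-06), and the yak comparison gave −3.32 ± 0.34 (adjusted p = 6.29e-06). The RefSeq table also names an ADAM1A gene, which is not a member here, and the assignment of reads common to the pair is not stated.

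ADAM18 (ENSBTAG00000004830), a sperm membrane protein of the same subfamily, stood at 23.3, 21.4 and 23.7 FPKM in cattle, at 15.9, 14.8 and 16.6 in yak and at 1.10, 0.747 and 0.14 in cattle-yak. Its mean was 34.4-fold lower in cattle-yak than in cattle and 23.8-fold lower than in yak (limma, adjusted p = 5.7e-08 and 1.53e-07). The yak libraries lay below the cattle libraries without overlap, but that difference was not called, with a log2 change of −0.50 ± 0.20 (limma, adjusted p = 0.101). It was called without cattle-yak replicate 3 (adjusted p = 0.0158) and after quantile normalisation (adjusted p = 0.0412).

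ADAM21 and ADAM20 are testis ADAMs that keep the catalytic motif in human, and they lie next to each other in the order of coding genes of the RefSeq cattle assembly. ADAM21 (ENSBTAG00000003715) stood at 13.7, 12.0 and 17.2 FPKM in cattle, at 25.2, 19.8 and 19.1 in yak and at 0.288, 0.363 and 0.166 in cattle-yak. The mean was 52.6-fold lower in cattle-yak than in cattle and 78.6-fold lower than in yak. Those were the largest ratios of group means among the 24 tested members in either comparison.

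ADAM20 (ENSBTAG00000038377) stood at 5.64, 5.32 and 5.16 FPKM in cattle, at 9.10, 6.71 and 4.81 in yak and at 1.21, 0.787 and 0.746 in cattle-yak. Its mean was 5.87-fold lower in cattle-yak than in cattle and 7.5-fold lower than in yak. The log2 change of ADAM20 against cattle was −1.74, with a 95% interval of −2.17 to −1.31, while that of ADAM21 was −3.58, with an interval of −3.93 to −3.22. These neighbours thus had intervals that did not overlap, and against yak the intervals, −2.44 to −1.58 and −4.48 to −3.78, did not overlap either. The difference between the genes was not itself tested, and the assignment of reads common to these related genes is not stated.

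The remaining gene of the group, ADAM7, is known from the epididymis. It was at 0.512 FPKM or less in every library, was listed at 0 in cattle replicate 2 and was not tested.

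**Figure D2:**
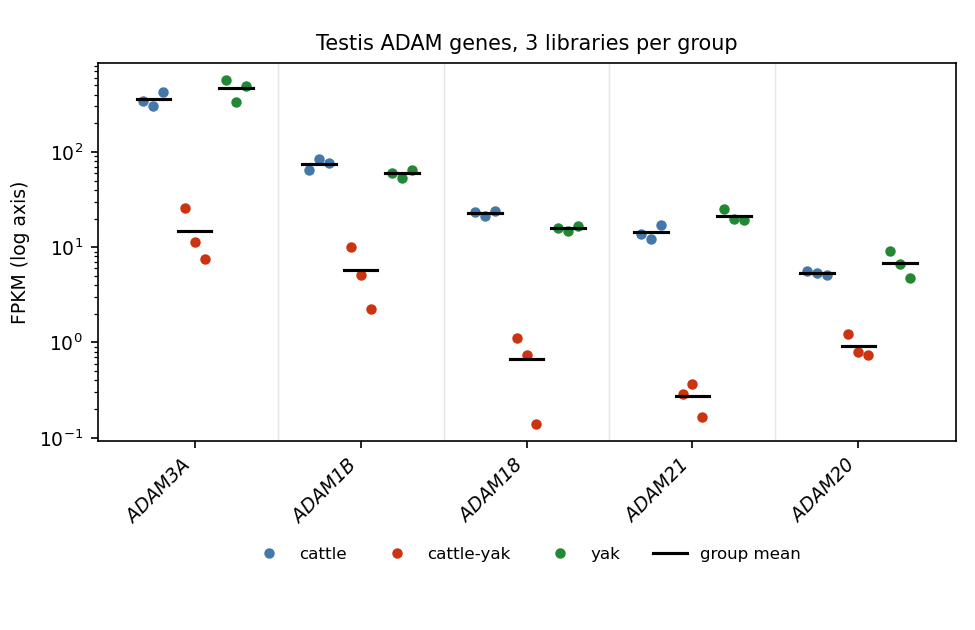
FPKM on a log axis of the 5 tested testis ADAM genes, with a point for each library and a bar for the mean of each group of 3. The red cattle-yak points lie below all blue cattle and green yak points for each gene, and ADAM3A spans 7.43 to 25.5 FPKM in cattle-yak.

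Within the hybrid these genes differed between animals. All 5 were lowest in cattle-yak replicate 3, and 4 were highest in replicate 1. Their summed FPKM, with ADAM7, was 38.2, 19.0 and 10.8 in cattle-yak replicates 1, 2 and 3. Spermatocyte markers, 11 genes, summed to 717, 729 and 466 FPKM in the same libraries, against 1879 to 2092 in cattle and 1877 to 2252 in yak. Of these 11, 7 were called lower in each hybrid comparison, 1 higher (SYCP3) and 3 not (HORMAD1, SYCP1 and SPO11), named after their values were seen. Of all genes tested, 30.0% were lower than in cattle and 30.7% lower than in yak. OVOL2, among the 7, had no cattle-yak library at 1 FPKM and passed the filter through the parents. Spermatid markers, 12 genes, summed to 62.1, 107 and 18.0 FPKM in the hybrid, against 17304 to 29115 in cattle and 22054 to 24602 in yak. The medians of the 12 spermatid markers, all called lower in both comparisons, were −7.02 and −6.99 on the log2 scale. ACRV1, among the 12, had no cattle-yak library at 1 FPKM and passed the filter through the parents. Spermatogonial markers, 11 genes, summed to 290, 370 and 374 FPKM in the hybrid, above the 96.5 to 118 in cattle and 62.7 to 94.3 in yak. The part of these cells in the ADAM values was not tested.

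The widely expressed ADAMs went the other way. Compared with cattle, 6 of 7 tested rose and 1 fell, where 54.4% of all genes rose and 30.0% fell. Compared with yak, 6 rose and 0 fell, where 55.3% of all genes rose and 30.7% fell. The medians were 1.26 and 1.63 on the log2 scale beside 0.50 and 0.54 over all genes. ADAM33 is among the 6, and without it 5 of 6 rose and 1 fell against cattle, 5 rose and 0 fell against yak, and the medians were 1.3 and 1.64. Those 5 were called under every alternative that tested them.

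ADAM10 (ENSBTAG00000005481), the main sheddase of Notch receptors, stood at 12.2, 14.1 and 13.9 FPKM in cattle, at 8.88, 17.4 and 15.4 in yak and at 52.5, 44.5 and 50.3 in cattle-yak. All cattle-yak libraries lay above all parental ones, and the log2 change was 1.80 ± 0.20 against each parent (limma, adjusted p = 1.34e-05 for cattle and 1.15e-05 for yak). It was the most abundant member in the hybrid. Between yak and cattle the log2 difference was 0.00, with a 95% interval of −0.45 to 0.45.

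ADAM17 (ENSBTAG00000001141), the enzyme that releases tumour necrosis factor, stood at 6.90, 7.96 and 7.90 FPKM in cattle, at 6.44, 7.69 and 7.26 in yak and at 23.1, 24.3 and 24.8 in cattle-yak. Its log2 change was 1.55 ± 0.11 against cattle (limma, adjusted p = 6.85e-07), and the yak comparison gave 1.63 ± 0.11 (adjusted p = 4.34e-07). The libraries of the hybrid did not overlap with those of either parent. The table held 2 transcripts of ADAM17, and the lesser of them was at 0.163 FPKM or below in every library.

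ADAM9 (ENSBTAG00000017455), a widely expressed sheddase, lies beside ADAM32 in the RefSeq order of coding genes. It stood at 5.21, 3.89 and 5.26 FPKM in cattle, at 1.97, 3.37 and 3.96 in yak and at 13.0, 14.0 and 13.5 in cattle-yak. Its mean was 2.82-fold higher in cattle-yak than in cattle and 4.36-fold higher than in yak (limma, adjusted p = 6.96e-05 and 5.85e-06). All cattle-yak libraries lay above all parental ones. Between yak and cattle ADAM9 was not called (adjusted p = 0.0804), except without yak replicate 3 (adjusted p = 0.0446).

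ADAM8 (ENSBTAG00000023832), known from leucocytes, stood at 2.09, 2.49 and 1.86 FPKM in cattle, at 0.953, 1.22 and 0.949 in yak and at 5.16, 5.57 and 4.41 in cattle-yak. The 3 groups did not overlap, in the order yak, cattle, cattle-yak. It rose by a log2 change of 0.94 ± 0.13 against cattle (limma, adjusted p = 6.66e-05), and the yak comparison gave 1.57 ± 0.13 (adjusted p = 1.76e-06). Lymphocyte markers, 8 genes, summed to 9.91 to 16.1 FPKM in cattle, to 4.51 to 10.5 in yak and to 23.0 to 26.6 in cattle-yak. Macrophage markers, 9 genes, summed to 170 to 173 FPKM in cattle, to 178 to 195 in yak and to 168, 293 and 171 in cattle-yak replicates 1, 2 and 3. The macrophage sum held opposite changes: of 8 tested 3 were higher and 2 lower than in cattle, and 6 higher and 2 lower than in yak. All genes tested were 54.4% higher and 30.0% lower than in cattle, and 55.3 and 30.7% in the yak comparison. CD68 passed the filter only with the hybrid. Without it 2 of 7 were higher and 2 lower than in cattle, and 5 higher and 2 lower than in yak. AIF1, picked after its values were seen, had a mean of 7.95 FPKM in cattle-yak beside 107 in cattle and 131 in yak, while MRC1, picked likewise, had a mean of 114 beside 25.9 and 31.4. The part of these cells in the ADAM8 values was not tested.

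ADAM15, an endothelial and epithelial member, and ADAM33, known from smooth muscle and fibroblasts, were also higher. ADAM15 stood at 1.24 to 1.67 FPKM in cattle, at 0.554 to 1.17 in yak and at 4.37 to 5.00 in cattle-yak. ADAM33 stood at 0.388 to 0.628 FPKM in cattle, at 0.0994 to 0.823 in yak and at 2.25 to 3.30 in cattle-yak. For both genes the hybrid lay above all parental libraries, and the log2 change of ADAM15 was 1.26 ± 0.15 against cattle (limma, adjusted p = 1.75e-05). With no filter on low values, ADAM33 differed from cattle by 1.17 (limma, adjusted p = 0.000599) and from yak by 1.23 (adjusted p = 0.000406).

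ADAM19, a sheddase of neuregulin, was the member that fell against cattle. It stood at 1.80, 2.01 and 1.77 FPKM in cattle, at 1.22, 1.58 and 1.07 in yak and at 1.25, 1.19 and 1.04 in cattle-yak. The hybrid lay below cattle and overlapped with yak, with log2 changes of −0.40 ± 0.12 (limma, adjusted p = 0.00982) and −0.08 ± 0.12 (adjusted p = 0.556). Median-ratio scaling called it lower than in yak as well (adjusted p = 0.00806). ADAM12, a member of mesenchymal cells, and ADAM28, known from lymphocytes and epididymis, did not pass the filter. ADAM12 stood at 1.89, 0.793 and 2.01 FPKM in cattle-yak, above the 0.324 to 0.745 of all parental libraries, and ADAM28 was at 0.0827 FPKM or less throughout.

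Among the neuronal ADAMs, which lack a catalytic site and bind LGI proteins at synapses, ADAM11 showed a species difference. ADAM11 (ENSBTAG00000001735) stood at 16.3, 16.8 and 16.6 FPKM in cattle, at 5.35, 7.68 and 6.58 in yak and at 23.4, 12.8 and 20.9 in cattle-yak. The yak libraries lay below all others, and cattle and cattle-yak overlapped. The log2 change was −1.23 ± 0.20 in yak against cattle (limma, adjusted p = 0.00232), 1.38 ± 0.20 in cattle-yak against yak (adjusted p = 7.62e-05) and 0.14 ± 0.20 in cattle-yak against cattle (adjusted p = 0.512). Without cattle-yak replicate 2, which was the lowest of its group, ADAM11 was called higher in the hybrid than in cattle, with a log2 change of 0.39 (adjusted p = 0.0337).

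ADAM22 stood at 1.14 to 1.38 FPKM in cattle, at 1.15 to 1.3 in yak and at 1.14 to 1.51 in cattle-yak. It was the only 1 of the 24 called in neither hybrid comparison, with 95% intervals of −0.28 to 0.24 against cattle and −0.22 to 0.30 against yak. Median-ratio scaling, which takes off the median shift of all genes, called it lower against both (limma, adjusted p = 0.0215 and 0.026). ADAM23, the third of these genes, was at 0.852 FPKM or less and was not tested.

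The ADAMTS genes were mixed. Of the proteoglycan-cleaving group 3 of 7 were tested. Of these, 2 were higher and 0 lower than in cattle, where 54.4% of all genes rose and 30.0% fell. Against yak 2 were higher and 1 lower, beside 55.3 and 30.7% of all genes. ADAMTS1 is among those higher, and without it 1 of 2 was higher than in either parent. ADAMTS9 (ENSBTAG00000003165), which cuts versican and aggrecan, stood at 2.69, 3.62 and 3.35 FPKM in cattle, at 2.13, 3.09 and 3.12 in yak and at 8.44, 5.87 and 7.43 in cattle-yak. The hybrid lay above both parents, with a log2 change of 0.96 ± 0.17 against cattle (limma, adjusted p = 0.000319), and the yak comparison gave 1.12 ± 0.17 (adjusted p = 9.44e-05).

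ADAMTS1, another versican-cleaving enzyme, stood at 0.656, 0.942 and 1.16 FPKM in cattle, at 0.214, 0.775 and 0.550 in yak and at 5.67, 2.72 and 4.88 in cattle-yak. With no filter on low values its log2 change was 1.47 against cattle and 1.82 against yak (limma, adjusted p = 0.000365 and 8.44e-05). ADAMTS20, the related enzyme known from pigment cell migration, stood at 1.95, 0.632 and 1.55 FPKM in cattle, at 3.01, 2.90 and 1.87 in yak and at 1.49, 1.34 and 1.64 in cattle-yak. The hybrid lay below yak by a log2 change of −0.52 ± 0.22 (limma, adjusted p = 0.0454), a call that was lost without cattle replicate 3, without any of the cattle-yak libraries, without yak replicate 1 or 2 (adjusted p = 0.0554 to 0.129), and at a pseudocount of 0.1 (adjusted p = 0.0842). Of the untested members, ADAMTS5 and ADAMTS15 were above both parents in all cattle-yak libraries, at 0.386 to 0.581 and 0.334 to 0.931 FPKM against 0.197 or less in the parents. ADAMTS4 and ADAMTS8 stayed at 0.321 and 0.130 FPKM or less.

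ADAMTS7 (ENSBTAG00000001396), which cuts the cartilage protein COMP, had the largest log2 rise against cattle of the 24 members. It stood at 0.932, 1.98 and 1.65 FPKM in cattle, at 1.09, 2.78 and 2.47 in yak and at 11.8, 5.15 and 10.04 in cattle-yak. The lowest hybrid library was still above every parental one, and the log2 change was 1.94 ± 0.31 against cattle (limma, adjusted p = 0.000152), and the yak comparison gave 1.66 ± 0.31 (adjusted p = 0.000438). ADAMTS12, its closest relative, was not tested and lay at 0.361 to 1.17 FPKM.

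Of the procollagen N-proteinases, ADAMTS2 was highest in yak. It stood at 1.27, 0.701 and 0.929 FPKM in cattle, at 2.57, 2.86 and 1.54 in yak and at 0.847, 0.575 and 0.698 in cattle-yak. The yak libraries lay above all others, with a log2 change of 0.74 ± 0.18 against cattle (limma, adjusted p = 0.0162), and cattle-yak was lower than yak by a log2 change of −0.94 ± 0.18 (adjusted p = 0.000496). The yak call was lost without cattle replicate 2, yak replicate 1 or yak replicate 2 (adjusted p = 0.0683, 0.0541 and 0.0604). ADAMTS3 stood at 0.750 to 0.976 FPKM in cattle, at 0.251 to 0.633 in yak and at 1.48 to 1.69 in cattle-yak. With no filter on low values its log2 change was 0.48 against cattle (limma, adjusted p = 0.00344), and among the filtered genes median-ratio scaling ended the call (adjusted p = 0.258). ADAMTS14, the third enzyme of this kind, was at 0.213 FPKM or less.

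ADAMTS6 and ADAMTS16 fell in the hybrid. ADAMTS6 (ENSBTAG00000016963), known from heart development and fibrillin turnover, stood at 13.7, 11.6 and 12.4 FPKM in cattle, at 13.0, 12.1 and 11.6 in yak and at 8.03, 8.51 and 5.01 in cattle-yak. It was the most abundant ADAMTS gene of the parents, and its log2 change was −0.76 ± 0.17 against cattle (limma, adjusted p = 0.00171), and the yak comparison gave −0.72 ± 0.17 (adjusted p = 0.00227). ADAMTS16, known from gonad development in rodents, stood at 3.60, 3.27 and 5.16 FPKM in cattle, at 2.78, 1.94 and 1.94 in yak and at 1.10, 0.761 and 0.517 in cattle-yak. The 3 groups did not overlap, and the log2 change was −1.48 ± 0.18 against cattle and −0.85 ± 0.18 against yak (limma, adjusted p = 2.77e-05 and 0.00131). Both genes were lowest in cattle-yak replicate 3, as the testis ADAMs were.

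ADAMTS10 and ADAMTS17, both linked to fibrillin microfibrils, were higher in the hybrid. ADAMTS10 stood at 0.745 to 1.14 FPKM in cattle, at 0.539 to 0.852 in yak and at 1.85 to 2.81 in cattle-yak (limma with no filter, adjusted p = 0.000578 for cattle and 0.000145 for yak). ADAMTS17 stood at 0.725 to 0.894 FPKM in cattle, at 0.806 to 1.53 in yak and at 2.01 to 2.49 in cattle-yak, and its call against yak (limma with no filter, adjusted p = 0.0023) was lost after median-ratio scaling of the filtered genes (adjusted p = 0.176). ADAMTS13, which cuts the von Willebrand factor, was untested at 0.110 to 0.346 FPKM, as were ADAMTS18 and ADAMTS19 at 0.0688 to 0.733 and 0.580 to 1.39 FPKM.

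**Figure D3:**
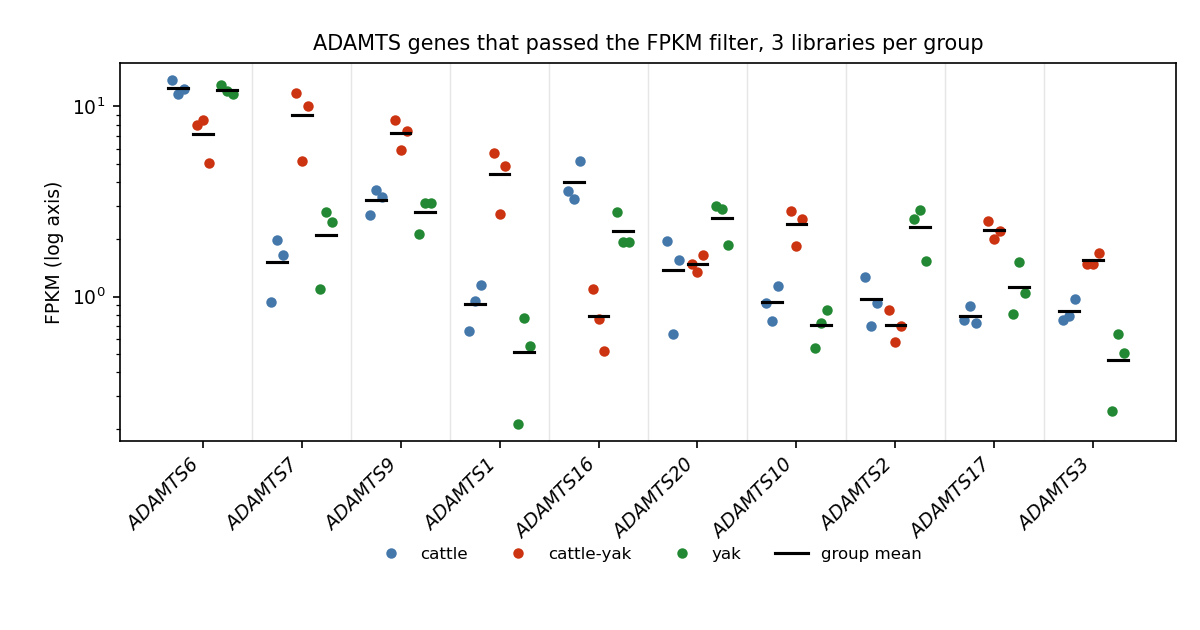
FPKM on a log axis of the 10 tested ADAMTS genes, ordered by their highest group mean, with a point for each library and a bar for each group mean. ADAMTS7, ADAMTS9, ADAMTS1, ADAMTS10, ADAMTS17 and ADAMTS3 lie higher in cattle-yak, ADAMTS6 and ADAMTS16 lie lower, and the cattle-yak point of ADAMTS7 at 5.15 FPKM is replicate 2.

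Cattle-yak replicate 2 was the lowest of its group for 11 of the 24 members, among them ADAMTS1, ADAMTS7, ADAMTS9, ADAMTS10 and ADAM11. Peritubular and stromal markers, 12 genes, summed to 479, 368 and 463 FPKM in cattle-yak replicates 1, 2 and 3. The same markers summed to 127 to 166 FPKM in cattle and to 37.1, 99.8 and 118 in yak replicates 1, 2 and 3. Yak replicate 1 was the lowest of its group for 12 of the 24 members and for 5 of the 7 widely expressed ADAMs. Sertoli cell markers, 10 genes, summed to 388 to 502 FPKM in cattle, to 384 to 534 in yak and to 1705 to 2002 in cattle-yak, and Leydig cell markers, 9 genes, to 264 to 427, 290 to 632 and 1669 to 2300. Endothelial markers, 8 genes, summed to 10.1 to 18.0, 19.0 to 22.2 and 30.8 to 35.9 FPKM in cattle, yak and cattle-yak. Markers of epididymis and rete testis, 7 genes, summed to 102 to 139, 134 to 147 and 115 to 154 in the same order. EPCAM, 1 of 3 tested, held most of that sum, at means of 112, 137 and 122 FPKM, and was not called. The other 2, KRT18 and KRT8, were higher than in either parent. These genes were named after their values were seen. Against yak, 5 of the 7 endothelial markers tested were higher and 1 lower, where 55.3% of all genes rose and 30.7% fell. CDH5 passed the filter only with the hybrid, and without it 5 of 6 were higher than in cattle and 4 higher than in yak. Of the 7 endothelial markers tested 6 were higher than in cattle and 1 lower, where 54.4% of all genes rose and 30.0% fell. The exception, VWF, named after its values were seen, had a mean of 1.70 ± 0.202 FPKM in cattle-yak beside 2.97 ± 1.26 in cattle and 10.8 ± 1.64 in yak, there the largest part of the yak sum. The part of any of these cells in the ADAM and ADAMTS values was not tested.

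**Figure D4:**
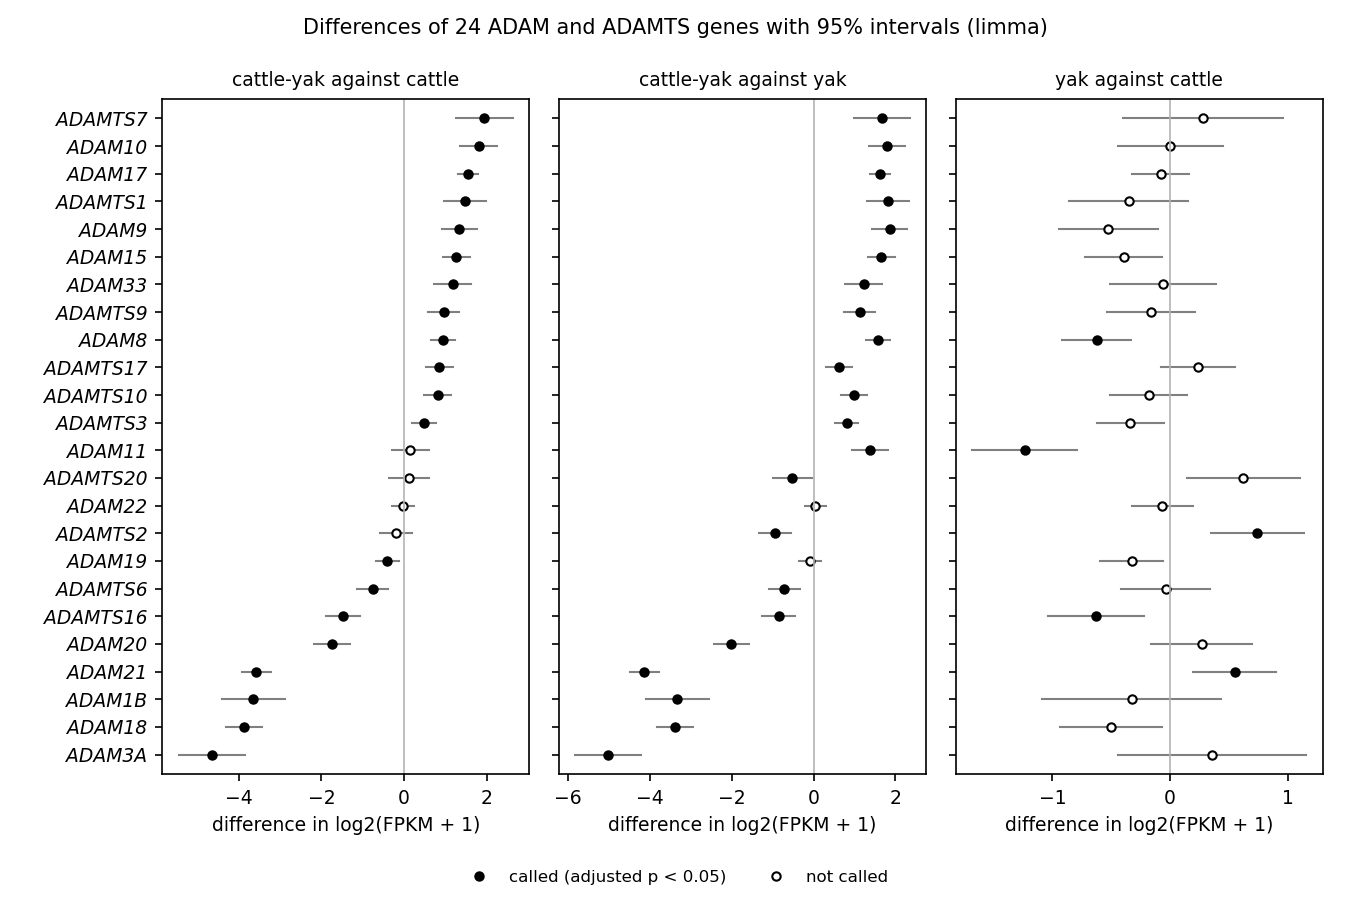
Differences in log2(FPKM + 1) of the 24 tested members in the 3 comparisons, with 95% intervals from limma, filled points for calls and open points for genes not called. ADAM3A lies lowest at −4.65 against cattle, ADAMTS7 highest at 1.94, and 5 points are filled between yak and cattle.

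The parent species differed in few members. Between yak and cattle 5 of 24 were called, 2 higher and 3 lower in yak, where 19.1% of all genes tested were called, 8.36% higher and 10.7% lower. All yak libraries lay above all cattle libraries for 2 members and below them for 7, as for 16.7 and 23.2% of all genes. ADAM21 and ADAMTS2 were higher in yak, and ADAM11, ADAM8 and ADAMTS16 were lower. ADAM8 had a log2 change of −0.62 ± 0.13 (limma, adjusted p = 0.00951), and it and ADAM11 were called under every alternative that tested them.

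The other calls depended on single libraries or settings. ADAM21 was higher in yak by 0.55 ± 0.16 on the log2 scale (limma, adjusted p = 0.0366), which was lost without cattle replicate 1 or 2 or yak replicate 1 or 2 (adjusted p = 0.0657 to 0.138). ADAMTS16 had a log2 change of −0.63 ± 0.18 (limma, adjusted p = 0.0384), and this call was lost when cattle replicate 1 or 3, yak replicate 2 or 3 or cattle-yak replicate 2 was left out (adjusted p = 0.0571 to 0.126). Without cattle replicate 2, yak replicate 1 or yak replicate 2 a total of 3 members were called. Without yak replicate 2 they included ADAM15, newly called lower in yak (limma, adjusted p = 0.0479). Other new calls were ADAMTS20, higher in yak without cattle replicate 1 (limma, adjusted p = 0.0436), and ADAMTS17, higher in yak after quantile normalisation (adjusted p = 0.0319).

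Genes that act with these enzymes were counted from lists by function, to be read beside the 54.4% higher and 30.0% lower of all genes against cattle, the 55.3 and 30.7% against yak, and the medians of 0.50 and 0.54. Of 6 inhibitors tested 5 were higher and 0 lower than in either parent, at medians of 1.78 and 2.06 on the log2 scale, and TIMP4 was not called. TIMP2, a secreted inhibitor of metalloproteinases, stood at 237 ± 29.0 FPKM in cattle (SD, n = 3), at 305 ± 89.2 in yak and at 989 ± 181 in cattle-yak. TIMP3, the inhibitor with the widest action on ADAM and ADAMTS enzymes, stood at 16.3 ± 3.07, 13.5 ± 5.71 and 70.2 ± 8.31 FPKM in the same order. A2M, the plasma protease trap alpha-2-macroglobulin, stood at 15.1 ± 2.56, 3.83 ± 2.05 and 44.8 ± 15.0 FPKM, with a log2 change of −1.84 between yak and cattle (limma, adjusted p = 0.00439).

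Proprotein convertases, which remove the propeptide of many ADAM and ADAMTS proteins, were split. Of 5 tested, 2 were higher and 2 lower than in either parent. PCSK4, the convertase of male germ cells, stood at 58.0 ± 7.62 FPKM in cattle, at 68.4 ± 2.98 in yak and at 5.81 ± 3.19 in cattle-yak, and fell by a log2 change of −3.23 ± 0.30 against cattle (limma, adjusted p = 3.68e-06). FURIN, the widely expressed convertase, rose from 4.14 ± 0.130 and 3.90 ± 0.891 to 12.6 ± 0.748 FPKM, and PCSK7 rose from 4.01 ± 0.497 and 3.40 ± 0.794 to 10.5 ± 1.31. The convertases thus held both directions, as the ADAM genes did.

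Partners that carry ADAM10 and ADAM17 to the cell surface, the tetraspanins of the C8 group and the iRhom complex, were near the shift of all genes against cattle. Of 6 tested, all 6 were higher than in cattle and 5 higher than in yak, at medians of 0.69 and 1.08 on the log2 scale. RHBDF1 passed the filter only with the hybrid, and without it 5 of 5 were higher than in cattle and 4 higher than in yak, at medians of 0.58 and 1.03. TSPAN5 stood at 23.3 ± 2.19 FPKM in cattle, at 25.3 ± 1.08 in yak and at 35.4 ± 5.20 in cattle-yak, TSPAN17 at 13.4 ± 0.688, 16.6 ± 2.25 and 44.1 ± 3.27. TSPAN14 stood at 3.55 ± 0.573, 4.40 ± 0.459 and 5.51 ± 0.923 FPKM, and was called against cattle (limma, adjusted p = 0.00813) and not against yak (adjusted p = 0.121).

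Of 15 tested membrane proteins known as ADAM substrates, 14 were higher and 1 lower than in either parent, at medians of 1.76 and 1.87 on the log2 scale. HBEGF, NOTCH1, NOTCH3 and TNFRSF1B, 4 of the 14, passed the filter only with the hybrid, and without them 10 of 11 were higher and 1 lower in both comparisons. APP, the amyloid precursor, rose to 134 ± 14.7 FPKM from 31.3 ± 3.19 in cattle and 22.9 ± 7.26 in yak. PRNP, the prion protein, rose from 34.5 ± 3.27 and 24.2 ± 5.62 to 120 ± 18.7, and CDH2, N-cadherin, from 12.0 ± 1.10 and 11.7 ± 3.58 to 47.3 ± 7.55. The substrate that fell was AREG, a ligand of the epidermal growth factor receptor chosen after its values were seen, from 13.1 ± 0.812 and 17.2 ± 0.810 to 0.284 ± 0.256 FPKM. AREG had no cattle-yak library at 1 FPKM and passed the filter through the parents. KIT and KITLG, both higher, are also among the spermatogonial and the Sertoli cell markers above.

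Matrix substrates of the ADAMTS enzymes were mixed. Of 15 tested, 9 were higher and 6 lower than in cattle, while 10 were higher and 5 lower than in yak, at medians of 1.00 and 1.52 on the log2 scale. Without LUM, which passed only with the hybrid, 8 of 14 were higher than in cattle and 9 higher than in yak. These shares were near those of all genes, which were not recounted without such genes. ACAN and COL2A1, both lower, had no cattle-yak library at 1 FPKM and passed through the parents. COL3A1, a fibrillar collagen, rose to 45.3 ± 12.4 FPKM from 15.9 ± 4.76 in cattle and 9.84 ± 5.27 in yak, and DCN, the proteoglycan decorin, from 14.8 ± 1.36 and 5.30 ± 3.24 to 48.2 ± 7.89. COMP, the substrate of ADAMTS7, fell from 29.1 ± 2.31 and 25.8 ± 2.38 to 1.51 ± 0.665 FPKM, a log2 change of −3.61 ± 0.18 against cattle (limma, adjusted p = 5.95e-08). COMP and ADAMTS7 RNA changed in opposite directions. COL3A1, DCN, COL1A1, COL1A2 and LUM are also among the stromal markers counted above, and VWF is among the endothelial markers.

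Most genes of a list for folding, sorting or processing ADAM3 and its partners on mouse sperm fell. The list also holds the general chaperones CALR and CANX, which were the 2 higher than in cattle. Of 13 tested, 2 were higher and 8 lower than in cattle, and 3 were higher and 8 lower than in yak, at medians of −3.56 and −3.77 on the log2 scale. CLGN, the germ cell chaperone calmegin and also among the spermatocyte markers above, stood at 993 ± 101 FPKM in cattle, at 1149 ± 105 in yak and at 232 ± 55.0 in cattle-yak. CMTM2, a membrane protein whose mouse relatives keep ADAM3 on sperm, fell from 510 ± 10.6 and 680 ± 87.7 to 27.7 ± 15.2 FPKM. PRSS55, also among those lower, had no cattle-yak library at 1 FPKM and passed the filter through the parents. CALR, the general chaperone calreticulin, rose from 336 ± 28.1 and 381 ± 73.7 to 526 ± 53.3 FPKM.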

How the data were processed

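RNA from whole testis of 3 cattle, 3 cattle-yaks and 3 yaks was sequenced, and the authors deposited FPKM per transcript for the 9 libraries. The submitters' processing notes name the cattle genome build UMD3.1 and, with no role for each, the tools HISAT2 2.0.5, Bowtie, Cufflinks, StringTie 1.3.4 and Trimmomatic. No yak build is named there, and how a cattle reference bears on yak and hybrid FPKM was not tested. Read depth is unknown: low FPKM values did not step in whole reads, with 3.18 to 5.11% of them at the most frequent ratio between libraries. A circular RNA table was not used here, because its rows carry no host gene.

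FPKM was summed per gene. Genes with at least 1 FPKM in at least 3 libraries were tested on log2(FPKM + 1) with limma 3.58.1 in R 4.3.3 (group means over all 9 libraries, empirical Bayes with trend, two-sided), with Benjamini-Hochberg adjustment over 14091 genes. The fit was also run on simulated data in which few genes changed. Most genes were called in the hybrid comparisons here, so that run does not bear on these counts. Values in every library are given for members with a mean of at least 5 FPKM in a group and for members called between yak and cattle. Other members with values per library were chosen after their values were seen. The 3 most abundant tested genes of each companion list are named. The members and lists were chosen with earlier results of these data known. RefSeq served only for gene names and the order of coding genes. Alternatives were another pseudocount, other filters, 3 scalings, the most abundant transcript, a replicate block and leaving out each library.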

Additional observations from a re-analysis of the deposited data

How the results depend on the processing

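No called difference of a named member changed direction under any alternative. Called members against cattle numbered 18 to 20 when single libraries were left out (main value 20), with 10 to 12 higher, and 11 with a minimum of 5 FPKM, 5 of them higher. Against yak they numbered 19 to 22 (main value 22), with 11 to 13 higher, and 12 with a minimum of 5 FPKM, 6 of them higher, while 20 were higher with no filter. A minimum of 5 FPKM left 12 members to test and no filter left 37. Leaving out a cattle-yak library left 22 members, since ADAM33 and ADAMTS3 no longer passed. Between yak and cattle 5 were called. That became 3 at a pseudocount of 0.1, 2 with a minimum of 5 FPKM and 3 to 6 when single libraries were left out. The 2 higher members became 1 at a pseudocount of 0.1, with no filter and with a minimum of 5 FPKM. They became 0 to 2 when single libraries were left out, 0 without cattle replicate 2, yak replicate 1 or yak replicate 2 (limma, 2, 4 and 2 at an unadjusted p under 0.05). The 3 lower members became 1 with a minimum of 5 FPKM and 2 to 4 when single libraries were left out.

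With the replicate number as a block the count between yak and cattle was 3, 1 of them higher, since ADAM21 and ADAMTS16 were no longer called (limma, adjusted p = 0.0599 and 0.0534), and the counts against cattle and yak stayed 20 and 22. The numbers do not pair the animals: deviations of libraries with the same number correlated between −0.172 and 0.226. Other alternatives kept 341 called values of single members and ended 13 calls, and leaving out libraries kept 393 and ended 18. The calls ended at other settings, beside those in the text, concerned ADAMTS16, ADAM21 and ADAMTS20. ADAMTS16 between yak and cattle lost its call at a pseudocount of 0.1, with no filter, after median-ratio scaling and after quantile normalisation (limma, adjusted p = 0.0828, 0.0584, 0.0536 and 0.0929). ADAM21 lost its call in that comparison at a pseudocount of 0.1 and with no filter (adjusted p = 0.118 and 0.0538). ADAMTS20 against yak lost its call with no filter and with equal FPKM sums (adjusted p = 0.0651 and 0.0893).

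Values that changed sign were not called in the reported fit. ADAMTS20 against cattle became −0.22 after median-ratio scaling and −0.14 to 0.29 when libraries were left out. ADAM11 against cattle became −0.40 and −0.018 to 0.39 in the same way. ADAM22 against cattle became 0.038 with equal FPKM sums and −0.10 to 0.018 when libraries were left out. ADAM22 against yak became −0.31 after median-ratio scaling, −0.13 after quantile normalisation and −0.034 to 0.082 when libraries were left out. ADAM19 against yak became −0.15 to 0.0095. Between yak and cattle quantile normalisation gave 0.030 for ADAM17, 0.082 for ADAM22, 0.053 for ADAM33 and 0.0017 for ADAMTS6, and median-ratio scaling gave 0.044 for ADAMTS6. ADAM10 became −0.000444 at a pseudocount of 0.1 and −0.025 with equal FPKM sums, and leaving out libraries gave −0.17 to 0.27 for ADAM10, −0.21 to 0.16 for ADAM33 and −0.090 to 0.025 for ADAMTS6. The cause of these shifts was not tested. The planned circular RNA comparison and its alternatives were not run, since no host genes were given. With 3 animals a group and unknown depth, differences of members near 1 FPKM are the least certain.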

Other observations

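Of 8 tested matrix metalloproteinases, the related family of secreted and membrane enzymes, 5 were higher and 2 lower in cattle-yak than in cattle, and 6 were higher and 2 lower than in yak, beside 54.4 and 30.0% of all genes against cattle and 55.3 and 30.7% against yak. MMP28 passed the filter only with the cattle-yak libraries, and without it 4 of 7 were higher than in cattle and 5 higher than in yak. The 2 lower, MMP13 and MMP27, had no cattle-yak library at 1 FPKM and passed through the parents. MMP15, a membrane-type enzyme, stood at 10.6 ± 1.39 FPKM in cattle (SD, n = 3), 9.27 ± 4.04 in yak and 49.9 ± 3.90 in cattle-yak. MMP2, a gelatinase, stood at 8.24 ± 1.85, 5.70 ± 0.815 and 8.37 ± 1.62 FPKM, and was called against yak (limma, adjusted p = 0.0341) and not against cattle (adjusted p = 0.90). MMP13, a collagenase, stood at 6.54 ± 2.18 FPKM in cattle and 6.18 ± 1.82 in yak, and fell in cattle-yak, where it was listed at 0 in 1 library.

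ADAMTS-like genes keep the thrombospondin repeats but lack the protease domain, and 4 were tested. Of these, 1 was higher and 1 lower in cattle-yak than in cattle, and 2 were higher and 2 lower than in yak. The whole set of tested genes had 54.4% called higher and 30.0% called lower in the cattle comparison. In the yak comparison it had 55.3 and 30.7%. ADAMTSL2 and THSD4 passed the filter only with the cattle-yak libraries, and without them 0 of 2 were higher and 1 lower than in cattle, and 0 higher and 2 lower than in yak. ADAMTSL3 fell to 4.90 ± 2.27 FPKM from 30.1 ± 2.03 in cattle and 26.3 ± 0.806 in yak, a log2 change of −2.48 ± 0.24 against cattle (limma, adjusted p = 5.42e-06). ADAMTSL1 averaged 2.75 ± 0.559 FPKM in cattle, 4.48 ± 0.615 in yak and 1.86 ± 0.822 in the hybrid, and fell against yak (limma, adjusted p = 0.00101). THSD4 stood at 1.2 ± 0.313, 0.152 ± 0.0832 and 2.15 ± 1.39 FPKM, with a call of lower in yak than in cattle (limma, adjusted p = 0.0292).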
